A study of Mus musculus with 4 samples.

Results

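Endothelial cells line every blood vessel, and 10 genes that mark these cells or signal to them were followed through muscle injury in 4 spatial transcriptomes of tibial muscle. The genes are Vegfa, which encodes the vascular endothelial growth factor VEGF-A; its receptors Kdr (VEGFR2) and Flt1 (VEGFR1); the endothelial junction and surface genes Cdh5 (VE-cadherin), Pecam1 (CD31) and Emcn (endomucin); the receptor genes Tek (TIE2) and Tie1; and the angiopoietin genes Angpt1 and Angpt2. They were taken by symbol, and each of the 10 matched 1 of the 32285 features in every count table and was detected in all 4 sections, with 72 to 5068 UMIs. The mice were Nse-Bmp4 transgenics on the C57BL/6 background, aged 6 to 8 weeks, in which the rat neuron-specific enolase promoter drives a murine Bmp4 cDNA, and every section, the day 0 section included, carried this transgene. Day 0 was uninjured muscle, and the other sections came from muscle taken 1, 3 and 7 days after injury, which the study's methods give as cardiotoxin injection. There was 1 section per day, the labels state that 3 tibial muscles were mixed for a group, and how these map onto a section was not given in the sources used here. No comparison below therefore has a replicate check or a p-value, and every interval covers counting error only. Wild-type muscle was not analysed here, so whether these courses differ in muscle without the transgene was not tested.

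VEGF-A is released by muscle fibres, macrophages and many other cells, and acts mainly through KDR on endothelial cells. FLT1 binds VEGF-A tightly and signals weakly, so it is regarded largely as a decoy. In the second pathway ANGPT1, made by mural and mesenchymal cells, activates the TEK receptor and stabilises vessels, whereas ANGPT2, stored and released by activated endothelium, mostly opposes it, and TIE1 is a partner of TEK with no firmly established ligand of its own. CDH5 holds endothelial junctions together, PECAM1 is found on endothelium and also on leukocytes and platelets, and EMCN is a sialomucin of capillary and venous endothelium.

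The sections held 2107, 2667, 3029 and 3032 capture spots on days 0, 1, 3 and 7, and a spot can hold several cells of different types. Summed counts were between 16777832 UMIs (unique molecular identifiers) on day 1 and 56113066 on day 3, and the median spot had 6322 UMIs on day 1 against 12119.5 to 21029 on the other days. Levels are given as UMIs per 1000000 UMIs of the section (CPM) with exact Poisson 95% intervals. They were not read across genes, since reads were not corrected for transcript length, and a lower level can mean fewer cells of a type or less RNA in each, which cannot be told apart here. The RNA around the vessels changed as well. Adult myofibre genes took 27.8% of UMIs on day 0, 15.1% on day 1, 9.12% on day 3 and 16.2% on day 7, and genes of monocytes and macrophages summed to 393, 1505, 7575 and 1967 CPM over the 4 days. Over the 14716 genes with at least 50 UMIs, the median log2 ratio of CPM to day 0 was 0.17 on day 1, 0.57 on day 3 and 0.65 on day 7, so a gene at its day 0 CPM lay below the typical gene on the injured days. Scaling by TMM factors removes this offset and lowers every log2 ratio to day 0 by 0.17, 0.55 and 0.60.

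Of the RefSeq promoters (GRCm38.p6, the assembly that mm10 names), those of 6 members were found in the table used here, namely Vegfa, Kdr, Flt1, Emcn, Tek and Tie1. The windows of the 4 receptor genes are shown, since on CPM Kdr, Tek and Tie1 were at least 2-fold lower on day 1 than on day 0 and Flt1 was not. The Flt1 log2 ratio was -0.91 on CPM and -1.08 under TMM, so its side of 2-fold depended on the scaling. Each window is the 250 bases upstream of a start site, 5′ to 3′ on the gene's strand. The Kdr and Flt1 windows lie inside the annotated span of the gene, and the Tek window overlaps its start. The Tie1 window lies outside the span. Every GGAAG or its reverse complement CTTCC is in capitals. These letters are 1 form of those read by ETS factors. The shorter GGAA was not searched for, so a window without a match can still hold it.

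Tie1, chr4:118489850-118490099, minus strand: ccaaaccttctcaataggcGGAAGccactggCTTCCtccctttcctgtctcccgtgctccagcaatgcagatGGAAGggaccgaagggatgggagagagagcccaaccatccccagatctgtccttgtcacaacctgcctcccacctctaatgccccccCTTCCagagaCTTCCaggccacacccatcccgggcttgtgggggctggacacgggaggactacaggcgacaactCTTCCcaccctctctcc
Tek, chr4:94739039-94739288, plus strand: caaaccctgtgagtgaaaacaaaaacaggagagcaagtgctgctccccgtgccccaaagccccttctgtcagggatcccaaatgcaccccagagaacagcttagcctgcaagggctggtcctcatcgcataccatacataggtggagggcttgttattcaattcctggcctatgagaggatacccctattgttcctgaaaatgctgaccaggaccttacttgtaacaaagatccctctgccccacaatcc
Kdr, chr5:75978456-75978705, minus strand: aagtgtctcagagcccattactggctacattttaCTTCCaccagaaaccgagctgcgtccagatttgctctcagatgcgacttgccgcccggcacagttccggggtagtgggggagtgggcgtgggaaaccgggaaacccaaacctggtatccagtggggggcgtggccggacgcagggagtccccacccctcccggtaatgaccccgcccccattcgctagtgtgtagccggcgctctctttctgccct
Flt1, chr5:147726012-147726261, minus strand: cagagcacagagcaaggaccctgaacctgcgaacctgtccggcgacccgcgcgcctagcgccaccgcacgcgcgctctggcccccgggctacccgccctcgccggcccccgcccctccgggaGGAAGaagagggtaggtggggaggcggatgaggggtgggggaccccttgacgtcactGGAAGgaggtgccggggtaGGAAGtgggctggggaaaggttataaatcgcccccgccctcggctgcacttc

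The Tie1 window held 6 matches, Flt1 3, Kdr 1 and Tek 0, while the Emcn window held 2 and each of the 2 Vegfa start sites 1. Of 32817 promoter windows of the same length, 64.1% held at least 1 match and 10.7% held 3 or more. These are matches of letters and not sites of binding. The core letters ACGTG or GCGTG, read by hypoxia-inducible factors, occurred in 38.6% of all windows on either strand. They were found 2 times in the Kdr window, 2 times at the second Vegfa start site, 1 time in Flt1 and 1 time in Emcn, and not in the windows of Tek, Tie1 or the first Vegfa start site.

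Vegfa was lower in every injured section than on day 0. Its level was 94.1 CPM on day 0 (95% interval 91.3 to 97.1, 4130 UMIs), 22.9 CPM on day 1 (20.7 to 25.4, 385 UMIs), 44.6 CPM on day 3 (42.8 to 46.3) and 70.5 CPM on day 7 (68.0 to 73.1). No 2 of these intervals overlapped, and the order from low to high was day 1, day 3, day 7 and day 0. Day 1 was 4.10-fold below day 0 (3.69 to 4.57), and only 2.48% of the genes tested had a lower ratio. Day 3 was 2.11-fold below (2.01 to 2.22) and day 7 was 1.34-fold below (1.27 to 1.40). Each scaling tried left Vegfa below day 0 on all 3 days, and under TMM the day 7 log2 ratio went from -0.42 to -1.02. Spots with at least 2000 UMIs were thinned to 2000 UMIs. Shallower spots were left out, 513 of 2667 on day 1 and 9 to 84 on the other days. Of the spots kept, 16.4% held a Vegfa UMI on day 0, 4.34% on day 1, 9.07% on day 3 and 14.2% on day 7.

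**Figure D1:**
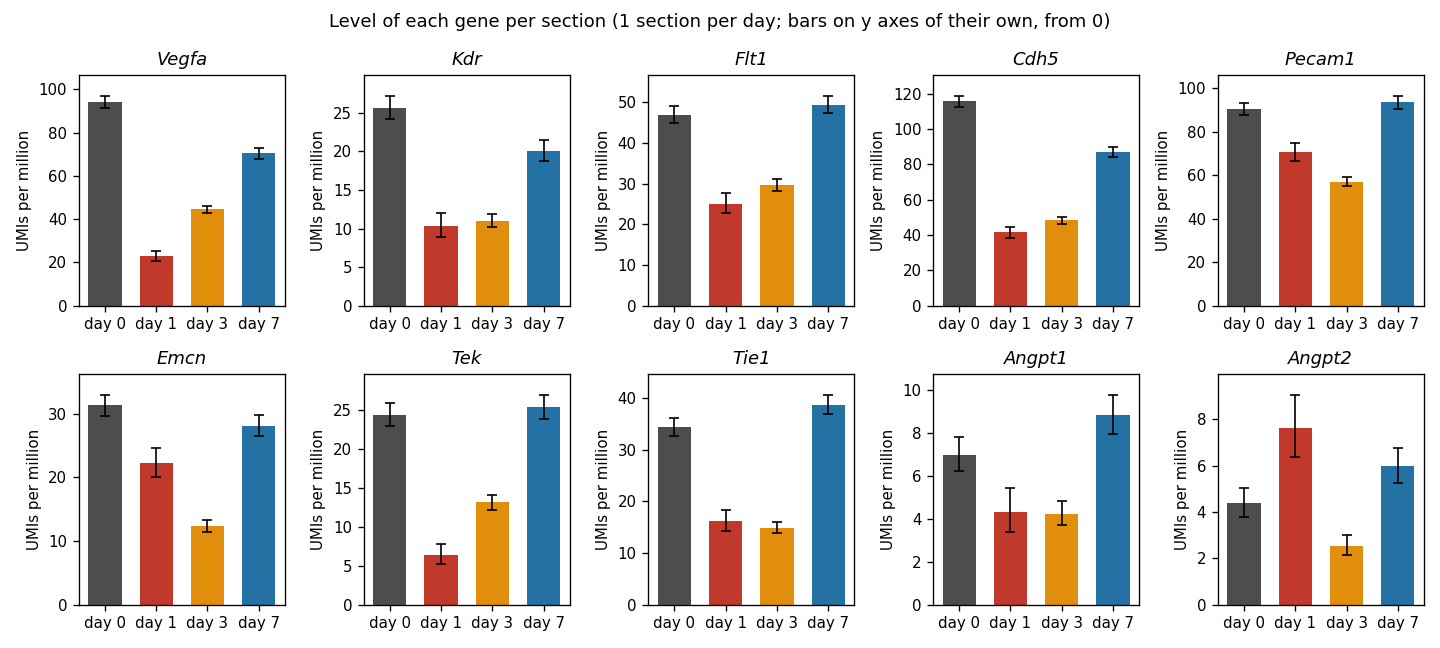
CPM of the section for each of the 10 genes (y axes from 0, a scale of its own in each panel) against day (x axis), 1 section per day, with exact Poisson 95% intervals as error bars. Vegfa was at 94.1, 22.9, 44.6 and 70.5 CPM over the 4 days, and Angpt2 is the panel in which day 1 is the tallest bar, at 7.63 CPM.

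The VEGF receptor genes differed in course. Kdr was at 25.7 CPM on day 0 (24.2 to 27.2), 10.4 on day 1 (8.89 to 12.03), 11.0 on day 3 (10.1 to 11.9) and 20.1 on day 7 (18.7 to 21.5). Days 1 and 3 did not differ beyond counting error, day 0 was above both by 2.47-fold and 2.33-fold, and day 7 lay between. Flt1 was at 47.0 CPM (44.99 to 49.1), 25.1 (22.8 to 27.6), 29.6 (28.2 to 31.1) and 49.5 (47.4 to 51.6) on the same days. Its levels on days 0 and 7 overlapped, and days 1 and 3 were 1.87-fold and 1.59-fold below day 0.

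The ratio of 2 genes within a section does not depend on how sections are scaled. There were 1.83 Flt1 UMIs per Kdr UMI on day 0 (1.70 to 1.97), 2.42 on day 1 (2.02 to 2.90), 2.69 on day 3 (2.45 to 2.96) and 2.46 on day 7 (2.27 to 2.67). Every injured section lay above day 0 without overlap, and the injured sections overlapped each other. Vegfa counts per Kdr count were 3.67 on day 0, 2.21 on day 1, 4.05 on day 3 and 3.51 on day 7, with day 1 (1.85 to 2.66) apart from the rest. Set against the summed counts of Cdh5, Kdr, Emcn, Tek and Tie1, called the endothelial sum below, Vegfa stood at 0.407 on day 0, 0.237 on day 1 (0.212 to 0.265), 0.448 on day 3 and 0.354 on day 7. Relative to the endothelial sum Vegfa was thus below day 0 on days 1 and 7 and above it on day 3 (0.427 to 0.469, against 0.392 to 0.422 on day 0).

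**Figure D2:**
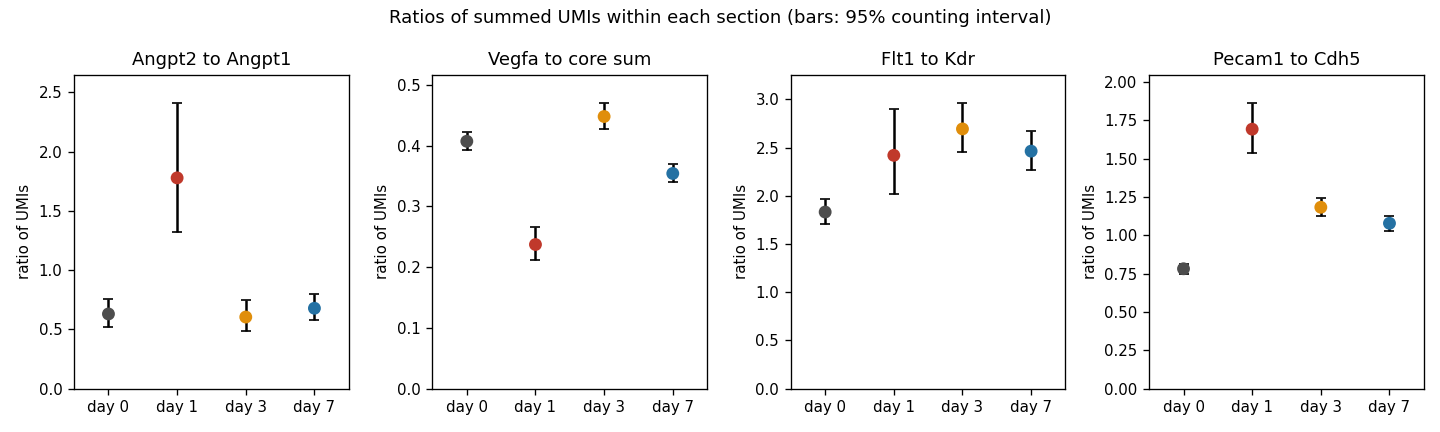
Ratios of summed UMIs within each section (y axes from 0) by day (x axis), with conditional binomial 95% intervals as error bars; the core sum is Cdh5, Kdr, Emcn, Tek and Tie1 together. Angpt2 to Angpt1 reached 1.78 on day 1 against 0.603 to 0.678 on the other days, while Vegfa to the core sum was lowest on day 1, at 0.237.

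Among the junction and surface genes, Cdh5 showed the larger difference and Pecam1 the smaller one on day 1. Cdh5 was at 116 CPM on day 0 (112 to 119), 41.6 on day 1 (38.6 to 44.8), 48.2 on day 3 (46.4 to 50.1) and 86.7 on day 7 (83.9 to 89.5). All 4 intervals were apart, and day 0 exceeded days 1, 3 and 7 by 2.78-fold, 2.40-fold and 1.33-fold. Pecam1 was at 90.3 CPM (87.5 to 93.1), 70.4 (66.4 to 74.5), 57.0 (55.1 to 59.0) and 93.4 (90.5 to 96.4), so day 1 was 1.28-fold below day 0 and day 7 overlapped day 0. The number of Pecam1 UMIs per Cdh5 UMI was 0.781 on day 0 (0.749 to 0.815), 1.69 on day 1 (1.54 to 1.86), 1.18 on day 3 (1.12 to 1.25) and 1.08 on day 7 (1.03 to 1.13), above day 0 in each injured section.

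Genes of leukocytes, and Pf4 among those of platelets, moved with that ratio in part. The 5 leukocyte genes summed to 49.1, 602, 1005 and 301 CPM on days 0, 1, 3 and 7, with none at 0, and the 6 platelet genes to 48.3, 596, 484 and 96.0 CPM. Pf4 made up most of the platelet sum, at 45.1, 571, 479 and 87.0 CPM, and Ppbp was at 0.0456, 23.4, 0.695 and 0.335 CPM. The platelet receptor genes did not share this course. Itga2b was at 2.55 CPM on day 0 and 1.49 on day 1, Gp1bb at 0.570 and 0.119 CPM, and Gp9 and Gp6 had at most 2 UMIs in any section. Which cells the Pf4 RNA came from was not tested, so the platelet sum is not read as a measure of platelets. The leukocyte sum was highest on day 3 and the Pecam1 to Cdh5 ratio on day 1, and the part of leukocytes or platelets in the Pecam1 level was not tested. Emcn, like Pecam1, was lowest on day 3. It was at 31.3 CPM on day 0 (29.7 to 33.0), 22.2 on day 1 (20.03 to 24.6), 12.3 on day 3 (11.4 to 13.3) and 28.2 on day 7 (26.6 to 29.8), so day 3 was 2.55-fold below day 0 (2.32 to 2.79), against 1.41-fold on day 1.

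The Tie receptors were low early and back near their day 0 CPM on day 7. The study also traced mesenchymal stem cells as Tie2-positive cells. Which cells the Tek RNA came from, here and in the endothelial sum, was not tested. Tek was at 24.4 CPM on day 0 (22.9 to 25.9), 6.38 on day 1 (5.23 to 7.71, 107 UMIs), 13.1 on day 3 (12.2 to 14.1) and 25.4 on day 7 (23.9 to 26.9). Day 1 was 3.82-fold below day 0 (3.13 to 4.71), 2.92% of the genes tested had a lower ratio, and days 0 and 7 overlapped. Tie1 was at 34.4 CPM (32.7 to 36.2), 16.2 (14.3 to 18.3), 14.9 (13.9 to 15.9) and 38.8 (36.9 to 40.7). Days 1 and 3 overlapped, at 2.12-fold and 2.31-fold below day 0, and day 7 was 2.61-fold above day 3 (2.40 to 2.84). Its day 7 log2 ratio to day 0 was 0.17 on CPM and -0.43 under TMM, so the side of day 0 on which Tie1 lay on day 7 depended on the scaling.

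The angiopoietins parted on day 1. Angpt1 was at 6.95 CPM on day 0 (6.19 to 7.78, 305 UMIs), 4.29 on day 1 (3.36 to 5.404, 72 UMIs), 4.22 on day 3 (3.70 to 4.80, 237 UMIs) and 8.82 on day 7 (7.94 to 9.77, 369 UMIs). Days 1 and 3 overlapped and lay 1.62-fold and 1.65-fold below day 0. Angpt2 was at 4.38 CPM (3.78 to 5.04, 192 UMIs), 7.63 (6.36 to 9.07, 128 UMIs), 2.55 (2.15 to 3.00, 143 UMIs) and 5.98 (5.26 to 6.76, 250 UMIs). It was the 1 member above day 0 on day 1, by 1.74-fold (1.38 to 2.19), and stayed above under TMM, DESeq2 size factors and a total that leaves out mitochondrial, haemoglobin and myofibre genes, though not as UMIs per spot, where its log2 ratio was -0.92. That 1.74-fold is under the 2-fold used for calls below, and 76.6% of the genes tested had a lower ratio.

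The balance of the pair showed the difference without scaling. Angpt2 UMIs per Angpt1 UMI numbered 0.630 on day 0 (0.523 to 0.757), 1.78 on day 1 (1.32 to 2.41), 0.603 on day 3 (0.487 to 0.746) and 0.678 on day 7 (0.575 to 0.798). Day 1 stood alone, 2.82 times the day 0 ratio, and the other sections overlapped. Relative to the endothelial sum, Angpt2 was 0.0189 on day 0 and 0.0788 on day 1 (0.0653 to 0.0944), a ratio 4.17 times as high, and Angpt1 was 0.0301 and 0.0443. On day 7 both stood above day 0 on this measure, Angpt1 at 0.0443 (0.0398 to 0.0492) and Angpt2 at 0.0300 (0.0264 to 0.0341). The next shares are of the spots with at least 2000 UMIs, after thinning to 2000 UMIs, with shallower spots left out. Angpt2 was found in 0.892%, 1.69%, 0.503% and 1.24% of them on days 0, 1, 3 and 7, and Angpt1 in 1.39%, 0.861%, 0.811% and 1.64%. In such sparse counts spots with UMIs of both members of a pair were few, and correlations of the members across spots were weak and are not read.

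As a group, 5 of the 10 members were at least 2-fold lower on day 1 than on day 0 (Vegfa, Kdr, Cdh5, Tek and Tie1) and none was as much higher. Over all 14716 genes tested, 11.2% were at least 2-fold lower and 18.2% at least 2-fold higher. On day 3 there were again 5 members lower (Vegfa, Kdr, Cdh5, Emcn and Tie1) and none higher, beside 7.37% of genes lower and 31.8% higher. On day 7 no member was past 2-fold in either direction, against 1.49% of genes lower and 31.0% higher. The median log2 ratio of the members was -0.995, -0.987 and 0.05 on the 3 days, where the median over all genes was 0.17, 0.57 and 0.65. Under TMM Flt1 was also past 2-fold lower on day 1 (log2 ratio -1.08), beside 14.2% of all genes. On that scale all 10 members were past 2-fold lower on day 3, beside 15.5% of all genes, and Vegfa and Cdh5 were on day 7, beside 5.44%. These 3 comparisons share the day 0 section.

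The injured sections were also set against each other. From day 1 to day 3, Tek was at least 2-fold higher (2.05-fold, 1.67 to 2.54) and Angpt2 at least 2-fold lower (2.99-fold, 2.34 to 3.83), beside 18.5% and 2.89% of all genes, and under TMM the Tek difference was under 2-fold. From day 3 to day 7, Emcn (2.29-fold), Tie1 (2.61-fold), Angpt1 (2.09-fold) and Angpt2 (2.35-fold) were at least 2-fold higher and none was as much lower, against 13.9% of all genes higher and 10.4% lower. All 10 members were higher on day 7 than on day 3, by 1.58-fold (Vegfa) to 2.61-fold (Tie1) on CPM. The direction held under every scaling tried, while the size did not. As UMIs per spot the log2 ratios were 0.24 (Vegfa) to 0.96 (Tie1).

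**Figure D3:**
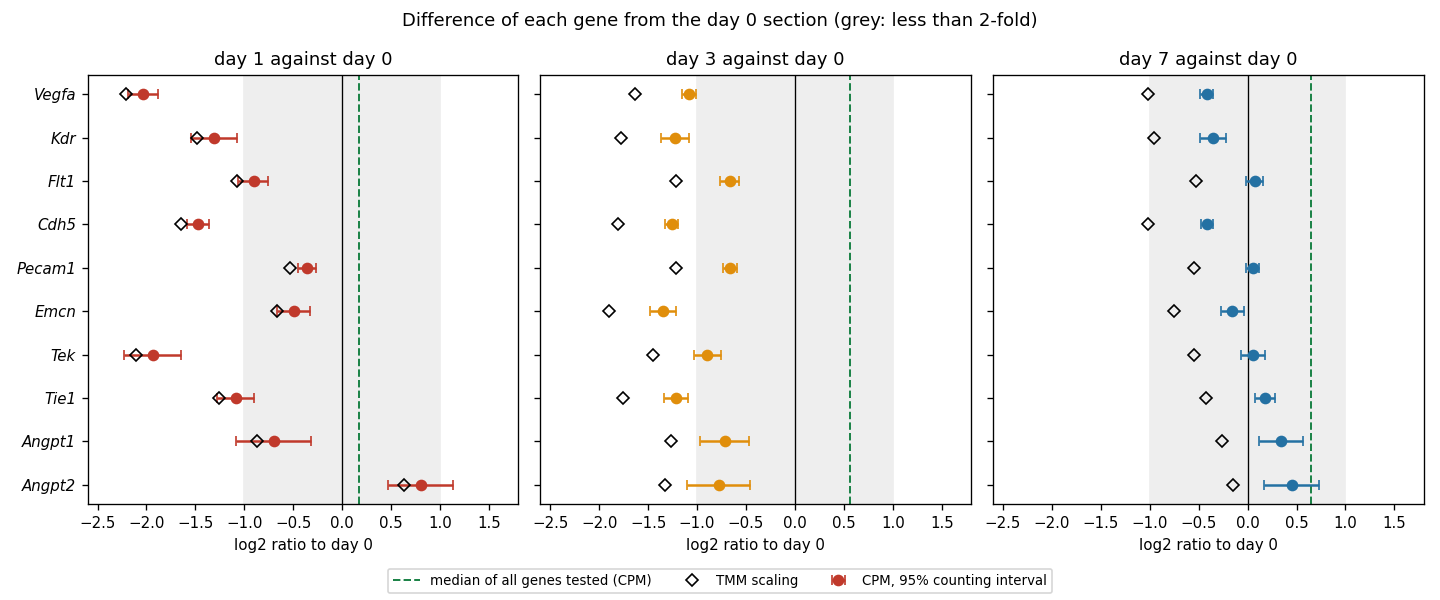
Log2 ratio of each gene to the day 0 section (x axis) for days 1, 3 and 7. Filled points are CPM with 95% counting intervals, open diamonds the same after TMM scaling, the dashed line the median over all genes tested and the grey band ratios under 2-fold. On day 7 Flt1, Pecam1, Tek, Tie1, Angpt1 and Angpt2 lie above 0 on CPM and below 0 under TMM, and on day 3 all 10 genes lie below 0 on both.

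Other genes of the 2 pathways were read from lists. Of 10 further VEGF and Tie genes, 1 was at least 2-fold higher and 2 lower on day 1, 1 higher and 1 lower on day 3, and 3 higher and none lower on day 7. Over all genes 18.2%, 31.8% and 31.0% were higher on the 3 days and 11.2%, 7.37% and 1.49% lower, so the 3 of 10 higher on day 7 were near the share over all genes. Ptprb, the phosphatase that dephosphorylates TEK, was at 66.6, 20.1, 18.5 and 49.6 CPM, with log2 ratios of -1.73, -1.85 and -0.43. Svep1, an extracellular matrix protein that binds TIE1, was at 22.5, 6.97, 35.3 and 45.9 CPM, below day 0 on day 1 alone. Pgf, the placental growth factor that binds FLT1 and not KDR, was at 5.68, 13.9, 3.12 and 6.84 CPM, so on CPM day 1 was highest, as for Angpt2, whereas as UMIs per spot its day 1 log2 ratio to day 0 was -0.43. Vegfd, a ligand of lymphatic endothelium, was at 3.40, 5.72, 7.81 and 13.9 CPM, and Nrp2, a co-receptor, at 19.5, 12.3, 23.8 and 52.3 CPM. Vegfd, Nrp2 and Svep1 were the genes past 2-fold on day 7, with log2 ratios of 2.03, 1.43 and 1.03 on CPM and 1.43, 0.82 and 0.43 under TMM.

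Of 41 other endothelial genes, 40 were tested. On day 1 there were 8 at least 2-fold lower and 2 higher, on day 3 there were 8 lower and 5 higher, and on day 7 none lower and 10 higher, against the shares over all genes given above. The lower genes on day 3 included Robo4, a vessel guidance receptor (27.3 to 9.45 CPM), and the transcription factor genes Erg (9.37 to 3.24 CPM) and Sox7 (7.64 to 2.05 CPM). Others went the opposite way. Cldn5, a tight junction gene, was at 27.1 CPM on day 0 and 62.9 on day 3, and Selp, the P-selectin of activated endothelium and platelets, at 1.14 CPM on day 0 and 8.76, 7.36 and 7.63 CPM after injury. Rgcc, listed with capillary genes, had 38.0 CPM on day 0 and 583 on day 1. In the tip cell list, which holds genes of sprouting endothelium, 3 of 6 were at least 2-fold lower on day 3 (Apln, Dll4 and Unc5b), beside 7.37% of all genes. On day 7, 5 of 6 were at least 2-fold higher than on day 3, beside 13.9%. Apln was at 21.0 CPM on day 0 and 21.7 on day 7, Dll4 at 7.39 and 7.05, and Unc5b at 7.41 and 13.1. The 7 genes listed for pericytes, the mural cells that wrap capillaries, summed to 606, 231, 282 and 658 CPM over the 4 days. Rgs5, the largest of them, was at 369, 101, 136 and 365 CPM. The other genes did not all share this course. On day 1, 3 of the 7 were at least 2-fold lower than on day 0, beside 11.2% of all genes. The median log2 ratio of the list was then -0.46, with values from -1.87 to 0.44.

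Where the members lay within a section was described by ordering the spots by their share of a marker list and setting the 25% of spots richest in it against the poorest 25%. The endothelial sum was higher in the spots richest in pericyte and vascular smooth muscle RNA in every section, by 1.98, 2.19, 1.85 and 2.03 times on days 0, 1, 3 and 7. In the spots richest in adult myofibre RNA it was at 0.487, 0.298, 0.860 and 0.518 times its level in the poorest. Vegfa differed from the endothelial sum after injury. Its ratio between the myofibre-rich and the myofibre-poor spots was 0.493 on day 0 (0.450 to 0.539), 0.531 on day 1 (0.390 to 0.724), 3.10 on day 3 (2.69 to 3.56) and 1.38 on day 7 (1.24 to 1.53). On day 3 this was 57.0 CPM against 18.4 CPM, and the myofibre-poor spots were the deeper, with a median of 25247 UMIs per spot against 9861. In the macrophage-rich spots Vegfa stood at 0.291 times the macrophage-poor spots on day 3 (0.256 to 0.330) and 0.555 times on day 7. Flt1 followed Vegfa on day 3, with 1.72 (1.46 to 2.01) for myofibre and 0.425 (0.368 to 0.490) for macrophage RNA, and Kdr had 1.22 (0.926 to 1.60) and 0.738 (0.578 to 0.945). Since the list takes part of the total, ratios were also taken without the mitochondrial, haemoglobin and myofibre genes. By myofibre RNA Vegfa then had 0.556 on day 0, 0.700 on day 1, 4.70 on day 3 and 1.97 on day 7, and the endothelial sum 0.548, 0.393, 1.31 (1.19 to 1.43) and 0.740, so the side of 1 on which the endothelial sum lay on day 3 depended on the total. On day 3 Flt1 had 2.61 and Kdr 1.86 (1.41 to 2.43) by myofibre RNA, and 0.284 and 0.494 by macrophage RNA.

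Angpt2 was higher in macrophage-rich spots in all 4 sections. The macrophage-rich spots exceeded the poorest by 2.18 times on day 0 (1.41 to 3.42), 2.29 on day 1 (1.31 to 4.05), 2.77 on day 3 (1.56 to 5.29) and 2.29 on day 7 (1.49 to 3.62), on 33 against 24 UMIs on day 1 and 79 against 14 on day 3. The rich spots were the shallower ones on day 1 (median 2634.5 UMIs per spot against 6538) and the deeper ones on day 3 (24674 against 11137). It was low in myofibre-rich spots, at 0.353, 0.223, 0.282 and 0.361 times the myofibre-poor spots. With pericyte and smooth muscle RNA the ratio was 2.97 on day 0 and 2.91 on day 7, but 0.869 on day 1 (0.518 to 1.47) and 1.35 on day 3 (0.859 to 2.14), intervals that include 1. Angpt1 on day 1 was 4.01 times higher in fibroblast-rich spots (1.73 to 10.8, 31 against 7 UMIs), where Angpt2 was at 0.595 (0.335 to 1.04). On day 7 Angpt1 was 2.51 times higher in the spots richest in chondrogenic RNA (1.86 to 3.42), at 14.1 against 5.61 CPM, while the ratios of Vegfa and Angpt2 there were 0.796 and 1.42.

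**Figure D4:**
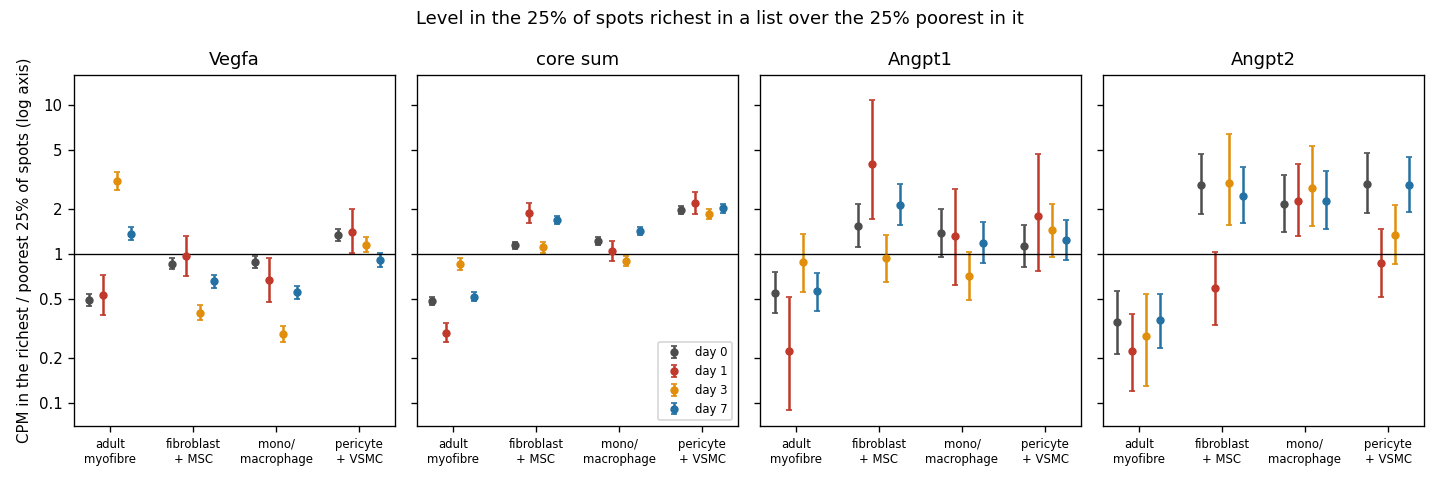
CPM in the 25% of spots with the highest share of a marker list divided by CPM in the 25% with the lowest (log axis), for Vegfa, the core sum of Cdh5, Kdr, Emcn, Tek and Tie1, Angpt1 and Angpt2 (VSMC, vascular smooth muscle cell; MSC, mesenchymal stromal cell). Colours are days and bars conditional binomial 95% intervals; Vegfa by myofibre share reaches 3.10 on day 3 and is under 1 on days 0 and 1, while the core sum by myofibre share on day 3, 0.860 as plotted, is 1.31 without mitochondrial, haemoglobin and myofibre genes in the total.

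Clustering of the spots of each section, done without the members and the marker lists, gave 28 regions of at least 20 spots, which are called here by their leading genes. On day 0 the endothelial sum ranged from 175 CPM in the largest region (led by Mical2 and Actc1) to 323 CPM in a region of 121 spots led by Col22a1 and Ccn2, where Vegfa was also highest, at 135 CPM against 74.7 to 110 CPM in the other 5 regions. On day 1 the lowest endothelial sum, 57.1 CPM, was in the 691 spots led by Mss51 and Ctxn3, and the highest, 147 CPM, in 344 spots led by Cyp2e1 and Inmt, whose adipocyte list was 10.6 times and vascular smooth muscle list 7.78 times the rest of the section. Angpt2 on day 1 was 11.98 CPM (29 UMIs) in 386 spots led by Slfn4 and Retnla, with the monocyte/macrophage list at 3.24 times the rest, and 3.63 CPM (21 UMIs) in the Mss51 region. It was 28.7 CPM in 439 spots led by Lars2 and Arg1, where it rests on 16 UMIs in the shallowest region of the study, with a median of 988 UMIs per spot.

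On day 3 Vegfa was lowest, at 17.2 CPM (305 UMIs), in the 714 spots led by Spp1 and Slfn4. The monocyte/macrophage list there was 3.09 times and the adult myofibre list 0.140 times the rest of the section, and Angpt2 was 3.26 times the rest (2.31 to 4.64). Vegfa was highest, at 85.1 CPM, in 280 spots led by Myl3 and Myl2, genes of slow fibres, where Angpt2 had 2 UMIs. The endothelial sum spanned less, from 80.7 to 110 CPM in 6 of the 8 regions, with 155 CPM in 79 spots led by Hp and Wfdc21 and 203 CPM in 83 spots led by Cxcl1 and Tnfaip6 that carried 7.72 times the smooth muscle list.

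On day 7 a pair of regions stood apart. The first held 193 spots led by Nnat, Cyp2e1 and Hp, with the adipocyte list at 35.1 times, the Schwann cell list at 9.91 times, the smooth muscle list at 8.56 times and the lymphatic list at 16.7 times the rest of the section. There Tek was at 80.2 CPM, 3.53 times the rest (2.95 to 4.19), Tie1 at 116 (3.30 times), Pecam1 at 258 (3.01 times), Emcn at 68.6 (2.62 times) and Angpt2 at 27.2 (5.49 times, 3.97 to 7.49), against 1.15 times for Vegfa (0.974 to 1.36) and 0.583 times for Angpt1 (0.277 to 1.08). Without these spots the day 7 section had 4.96 CPM of Angpt2, 22.7 of Tek and 35.1 of Tie1. The second held 273 spots led by Col27a1, Smpd3 and Slc13a5, with the chondrogenic list at 13.0 times and the hypertrophic and osteogenic list at 10.9 times the rest. Angpt1 was at 21.9 CPM there (86 UMIs), 2.94 times the rest (2.28 to 3.75), while the other 7 regions of that day were between 5.24 and 8.30 CPM. Kdr was 1.38 times the rest (1.12 to 1.70), the endothelial sum 1.09 times (1.01 to 1.17) and Vegfa 0.655 times (0.562 to 0.760).

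**Figure D5:**
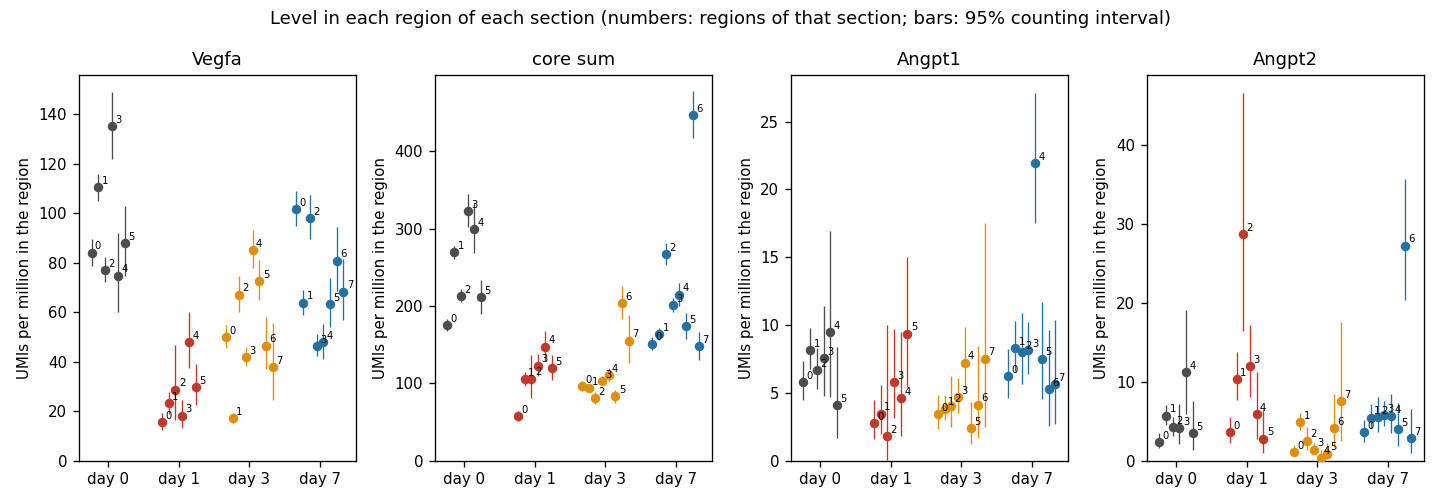
CPM in each region of each section (y axes from 0) for Vegfa, the core sum of Cdh5, Kdr, Emcn, Tek and Tie1, Angpt1 and Angpt2, with exact Poisson 95% intervals; small numbers tell apart the regions of a section and carry no order between sections. Angpt1 on day 7 is highest in region 4, at 21.9 CPM, and the core sum (446 CPM) and Angpt2 (27.2 CPM) of that day in region 6.

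Over the 28 regions, the genes whose log2(CPM + 1) was most like that of the endothelial sum were Ptprb (Pearson's r 0.952), Gimap4, Itga1, Col4a2 and Ehd2, and with each section centred on its own mean they were Pecam1 (0.968), Mmrn2, Rasip1, Mylk and S1pr1. Those most like Vegfa were Kcnc1 (0.909), Lynx1, Isca1, Slc41a3 and Nr4a1, and after centring Perm1 (0.837), Ptpn3, Kcnj2, Pdha1 and Mtfp1. For Angpt1 the first was Colgalt2 on both scales (0.803 and 0.710), and for Angpt2 it was Mmp9 (0.839), or Cep350 after centring. Regions of 1 section share a library and differ in depth, so these values are descriptions and have no p.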

How the data were processed

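Visium sections of tibial muscle, 1 per day, were measured by the authors, who deposited raw UMI counts per gene and spot over tissue. Per the file headers the count tables came from Space Ranger 1.2.0, while the methods and the labels name other versions, and the processing notes name mm10. All 10835 deposited spots were used. The 4 sections share 1539 to 2311 spot barcodes per pair, which in this assay name positions on the slide and not cells. Groups came from the sample titles.

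Counts of the 10 members and of 26 marker lists were summed per section and divided by the total. Ratios carry conditional binomial 95% intervals, and under 3 UMIs was entered as 3. A gene was tested from 50 UMIs upward, summed over the sections, and 2-fold was the call. The members and lists were chosen with earlier results of these data known. All members are named; of a list, at most 3 genes per comparison, those furthest from day 0; and the 5 genes most like a member over regions (at least 1000 UMIs). Rgs5 for its level and the platelet genes were named after their values were seen. Spots were thinned to 2000 UMIs in 20 draws. Regions were Leiden clusters (10000 per spot, 2000 variable genes, 30 components, 15 neighbours, resolution 0.5, seed 1), clustered without lists, mitochondrial and haemoglobin genes. Scripts were tested on simulated data. No p-value was computed. No doublet caller was run, as spots hold several cells. Spot positions, images and the single-cell part were not used here. Promoters came from RefSeq (GRCm38.p6), and protein sequences were not used here.

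Alternatives were TMM (edgeR 4.0.16), DESeq2 1.42.0 size factors, a total that leaves out mitochondrial, haemoglobin and myofibre genes, UMIs per spot, spots of at least 2000 UMIs, a minimum of 10 UMIs, a 1.5-fold call, thinning to 1000 or 4000 UMIs or none, 33.3% in place of 25% of spots in the rich and poor groups and resolution 1. Regions were made with Scanpy 1.11.5 and leidenalg 0.10.2, figures with matplotlib 3.10.9, and intervals with SciPy 1.17.1, pandas 2.3.3 and NumPy 2.4.6 in Python 3.11.15, with R 4.3.3 for the scaling factors.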

Additional observations from a re-analysis of the deposited data

Results flagged for a closer look

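For Tie1, Angpt1 and Angpt2 the injured sections lay on both sides of day 0 on CPM with counting intervals that excluded a ratio of 1 on each side. There was 1 section each, and the difference between days was not tested. Tie1 had log2 ratios to day 0 of -1.09 on day 1, -1.21 on day 3 and 0.17 on day 7. Angpt1 had -0.70, -0.72 and 0.34 on the same days. Angpt2 had 0.80 on day 1, -0.78 on day 3 and 0.45 on day 7. Under TMM the day 7 values were -0.43 for Tie1, -0.26 for Angpt1 and -0.15 for Angpt2, so the day 7 side depended on the scaling, while Angpt2 was above day 0 on day 1 and below it on day 3 on both scales. Flt1, Pecam1 and Tek also had day 7 above and days 1 and 3 below day 0 on CPM, with day 7 log2 ratios of 0.07, 0.05 and 0.06 whose intervals included 0.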

How the results depend on the processing

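With 1 section per day, the depth of the day 1 section (16777832 UMIs, 72 of them Angpt1) sets the widest intervals, and the part of animal-to-animal spread could not be measured. No paired analysis was possible because each day has 1 section. Restricting to spots with at least 2000 UMIs, or testing genes with at least 10 UMIs, moved none of the 22 counts of genes past the fold by over 1.5 times, and the first kept all 28 ratios between members within their intervals. All 40 shares of spots moved with the depth of thinning. Of 187 ratios between rich and poor spots, 90 moved with the total that leaves out mitochondrial, haemoglobin and myofibre genes, 32 of the 187 changing side of 1, and 30 moved with 33.3% of spots in each group. Of 88 region ratios, 16 moved with that total and 23 at resolution 1. None of the members' log2 ratios, rich to poor ratios and region ratios past 2-fold changed sign under the alternatives run for them. Among the other named genes, Pgf (-0.43), Egln3 (-0.050) and Ankrd37 (-0.66), each past 2-fold higher on day 1, had log2 ratios below 0 as UMIs per spot.

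Under TMM and under DESeq2 size factors alike, members at least 2-fold lower went from 5 to 10 at day 3 and from 0 to 2 at day 7, and from day 1 to day 3 members higher went from 1 to 0 and lower from 1 to 2. Under both, other VEGF and Tie genes higher went from 1 to 0 and lower from 1 to 3 at day 3, and higher from 3 to 1 and lower from 0 to 1 at day 7. Under both, other endothelial genes lower went from 8 to 20 at day 3, and at day 7 higher went from 10 to 2 and lower from 0 to 2. Over all genes under TMM, 18.8% were higher and 15.5% lower at day 3, and 14.2% higher and 5.44% lower at day 7. From day 1 to day 3 these shares were 10.5% and 5.84%. With mitochondrial, haemoglobin and myofibre genes left out of the total, members lower at day 3 were 10, and from day 1 to day 3 higher were 0 and lower 2. With that total, other VEGF and Tie genes at day 3 were 0 higher and 3 lower, and other endothelial genes 18 lower at day 3 and 6 higher and 2 lower at day 7. Over all genes with that total, 20.7% were higher and 13.3% lower at day 3, and 20.6% higher and 2.67% lower at day 7. From day 1 to day 3 these shares were 13.0% and 4.48%.

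As UMIs per spot, which leaves the shallow day 1 section uncorrected, members lower were 9 at day 1, beside 74.4% of all genes, and 2 at day 7, beside 5.35%. From day 1 to day 3 members higher were 8, beside 93.4% of all genes, and lower 0, beside 0.272%. From day 3 to day 7 members higher were 0, beside 7.75%. On that scale other VEGF and Tie genes were 0 higher and 8 lower at day 1, 2 lower at day 3, and 1 higher and 1 lower at day 7. Other endothelial genes were 36 lower at day 1, and 2 higher and 2 lower at day 7. Over all genes on that scale 3.62% were higher at day 1, 9.29% lower at day 3 and 14.3% higher at day 7, with the shares lower at days 1 and 7 as given for the members.

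A 1.5-fold call gave 1 member higher at day 1, 10 lower at day 3, 2 higher and 2 lower from day 1 to day 3, and 10 higher from day 3 to day 7. At day 1 Flt1 and Angpt1 (log2 ratios -0.91 and -0.70) joined the members already called lower at 2-fold. For other VEGF and Tie genes it gave 2 higher and 5 lower at day 1, 2 higher and 3 lower at day 3, and 5 higher at day 7. For other endothelial genes it gave 6 higher and 16 lower at day 1, 8 higher and 15 lower at day 3, and 17 higher and 2 lower at day 7. The lower threshold itself raises these counts, and the cause of the other moves was not tested. The share of all genes past 1.5-fold was not taken, so the 1.5-fold counts are not read as a result about the members or the lists.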

Other observations

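Lymphatic and hypoxia-response genes lay outside the comparisons above. Of 5 lymphatic genes, 4 were at least 2-fold higher on day 7 than on day 0, beside 31.0% of all genes, and the list summed to 21.7, 9.48, 48.7 and 134 CPM over days 0, 1, 3 and 7. Ccl21a, a chemokine of lymphatic endothelium, was at 6.88 CPM on day 0 and 101 on day 7, Mmrn1 at 1.12 and 10.6, and Prox1, the transcription factor of lymphatic identity, at 1.37 and 4.85. The list was 16.7 times higher in the day 7 region led by Nnat, Cyp2e1 and Hp than in the rest of that section, at 1309.6 CPM. Under TMM 3 of the 5 were past 2-fold higher on day 7, beside 14.2% of all genes.

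Of 10 genes that respond to low oxygen, Vegfa not among them, 3 were at least 2-fold higher on day 1, beside 18.2% of all genes. None was at least 2-fold lower, but some lay below day 0, with log2 ratios from -0.66 to 1.95 over the list. The median of the list was 0.20, near the 0.17 over all genes. Slc2a1, the glucose transporter GLUT1, was at 7.39 CPM on day 0 and 28.5 on day 1, Egln3, an oxygen-sensing hydroxylase, at 9.32 and 29.8, and Ankrd37 at 2.42 and 5.07. Under TMM 2 of the 10 were past 2-fold higher on day 1, Ankrd37 being under it (log2 ratio 0.89), and as UMIs per spot none was higher and 6 were lower, beside 74.4% of all genes, with Egln3 and Ankrd37 below day 0 (log2 ratios -0.050 and -0.66). Vegfa was 4.10-fold lower on CPM in the same comparison. On day 3 there were 4 of the 10 at least 2-fold higher, beside 31.8% of all genes, and on day 7 there were 2, beside 31.0%. Under TMM these were 1, beside 18.8%, and 0, beside 14.2%.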
